A study of Homo sapiens with 6 samples.

Results

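The genes described here are 36 collagens and matrix proteins, and they were followed across 6 human neuroblastoma cell lines. They were chosen by name: a locus of the deposited expression table counted as a member when its gene name field held the symbol. All 36 were found, each at 1 locus, among 16223 loci with a gene name. Ribosome-depleted RNA was sequenced from 4 MYCN-amplified lines, BE(2)-C, CHP134, Kelly and SK-N-DZ, and from 2 MYCN-non-amplified lines, SK-N-AS and SY5Y, with 1 library per line and no treatment (the labels write BE2C, Kelley, SKNAS and SKNDZ). The medium was RPMI for CHP134 and Kelly and DMEM for the remaining lines. The labels name the line, and the MYCN status of each line comes from the study's methods. Each line is a continuous culture and stands for its tumour of origin only, BE(2)-C and SY5Y being cloned sublines, and since the lines are the replicates every test measures the spread between lines. SK-N-AS and SY5Y, each a single library, are also described apart. MYCN itself was at 571, 505, 774 and 184 FPKM (a level scaled to gene length and library size, and the unit inferred for the deposited values) in BE(2)-C, CHP134, Kelly and SK-N-DZ, against 0.208 FPKM in SK-N-AS and 0.921 FPKM in SY5Y, in the direction of their MYCN status.

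The extracellular matrix is built from a few kinds of protein. Fibrillar collagens assemble as triple helices into fibres that give connective tissue its tensile strength, and small leucine-rich proteoglycans such as decorin and lumican sit on these fibres and set their spacing. Basement membranes are thin sheets under epithelia and around nerves and vessels, made of networks of collagen IV and laminin that nidogens tie together. Lysyl oxidases cross-link collagen and elastin outside the cell. In neuroblastic tumours, Schwann cells and fibroblasts of the stroma are known sources of matrix, and neuroblastoma cells can themselves take a mesenchymal state.

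The markers were read first. COL3A1 and DCN, the genes that mark a collagen-producing mesenchymal cell in this set, were at or below 0.913 FPKM in each MYCN-amplified line whereas SK-N-AS had 247 and 110.4 FPKM and SY5Y had 27.3 and 14 FPKM. Of 10 sympathetic neuroblast genes, 8 to 10 reached 1 FPKM in each MYCN-amplified line, 8 did in SK-N-AS and 9 in SY5Y. Their summed level was 345 to 1844 FPKM in the MYCN-amplified lines, 294 FPKM in SK-N-AS, below all 4 of them, and 887 FPKM in SY5Y. Of the 9 tested, 8 had a positive log2 fold change in the MYCN-amplified lines against SK-N-AS (median 1.33) and 7 a negative one against SY5Y (median -1.18). All 10 fibroblast and mesenchymal markers had a locus, and their summed level was 117 to 288 FPKM in the MYCN-amplified lines, 862 FPKM in SK-N-AS and 623 FPKM in SY5Y. Between 5 and 7 of the 10 reached 1 FPKM in a MYCN-amplified line, as did 10 in SK-N-AS and 7 in SY5Y. VIM, which encodes the filament protein vimentin, gave most of the sum in the MYCN-non-amplified lines, with 7.4 to 114 FPKM in the MYCN-amplified lines, 612 FPKM in SK-N-AS and 386 FPKM in SY5Y, and the PDGFRA locus is merged with FIP1L1 and other genes. TWIST1, THY1, PDGFRB and SNAI2 overlapped between the groups, and the highest line was SY5Y for TWIST1 and BE(2)-C for the other 3. FAP, a surface protease of activated fibroblasts, was listed at 0 in all 4 MYCN-amplified lines, at 18.9 FPKM in SK-N-AS and at 0.209 FPKM in SY5Y. PRRX1, a mesenchymal transcription factor, reached 1.95 FPKM at most in the MYCN-amplified lines, 45.7 FPKM in SK-N-AS and 0.00327 FPKM in SY5Y. Of 5 leukocyte markers listed, 2 had a locus. PTPRC was at 0.0658 FPKM or less in the MYCN-amplified lines, 108 FPKM in SK-N-AS and 0.0339 FPKM in SY5Y, and the CD68 locus is merged with other genes and could not be read. The 3 Schwann cell markers with a locus, of 6 listed, summed to 59.5 to 80.7 FPKM, 43.3 FPKM and 35.9 FPKM in the same order of groups, mostly from the ERBB3 locus, which is merged with PA2G4. No values were obtained for the 5 endothelial markers listed. The part of these markers in the matrix values below was not tested, and in bulk RNA fewer cells of a type cannot be told apart from less RNA per cell.

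Matrix RNA was scarce in the MYCN-amplified lines and abundant in SK-N-AS. The 36 genes summed to 169 FPKM in BE(2)-C, 134 FPKM in CHP134, 199 FPKM in Kelly and 146 FPKM in SK-N-DZ, against 1667 FPKM in SK-N-AS and 357 FPKM in SY5Y. In SK-N-AS, LUM, SPARC, COL3A1 and DCN alone made up 71.3% of that sum. Between 13 and 18 members reached 1 FPKM in a MYCN-amplified line, whereas 30 did so in SK-N-AS and 21 in SY5Y. SK-N-AS had no member listed at 0, and each other line had 2 to 4.

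The kind of matrix also differed between lines. Basement membrane genes held 48.6% of the matrix RNA in BE(2)-C, 30.1% in CHP134, 29.4% in Kelly and 34.2% in SK-N-DZ, compared with 8.76% for SK-N-AS and 31.3% for SY5Y. Their summed level was still highest in SK-N-AS, at 146 FPKM, against 40.5 to 82.1 FPKM in the MYCN-amplified lines and 112 FPKM in SY5Y. Fibrillar collagens held 2.24% to 2.91% in the MYCN-amplified lines, 18% in SK-N-AS and 8.36% in SY5Y. Small proteoglycans held 9.02% in BE(2)-C and at most 0.436% in the other MYCN-amplified lines, compared with 35.5% for SK-N-AS and 12.8% for SY5Y. These shares are a description of 6 libraries, without a test.

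**Figure D1:**
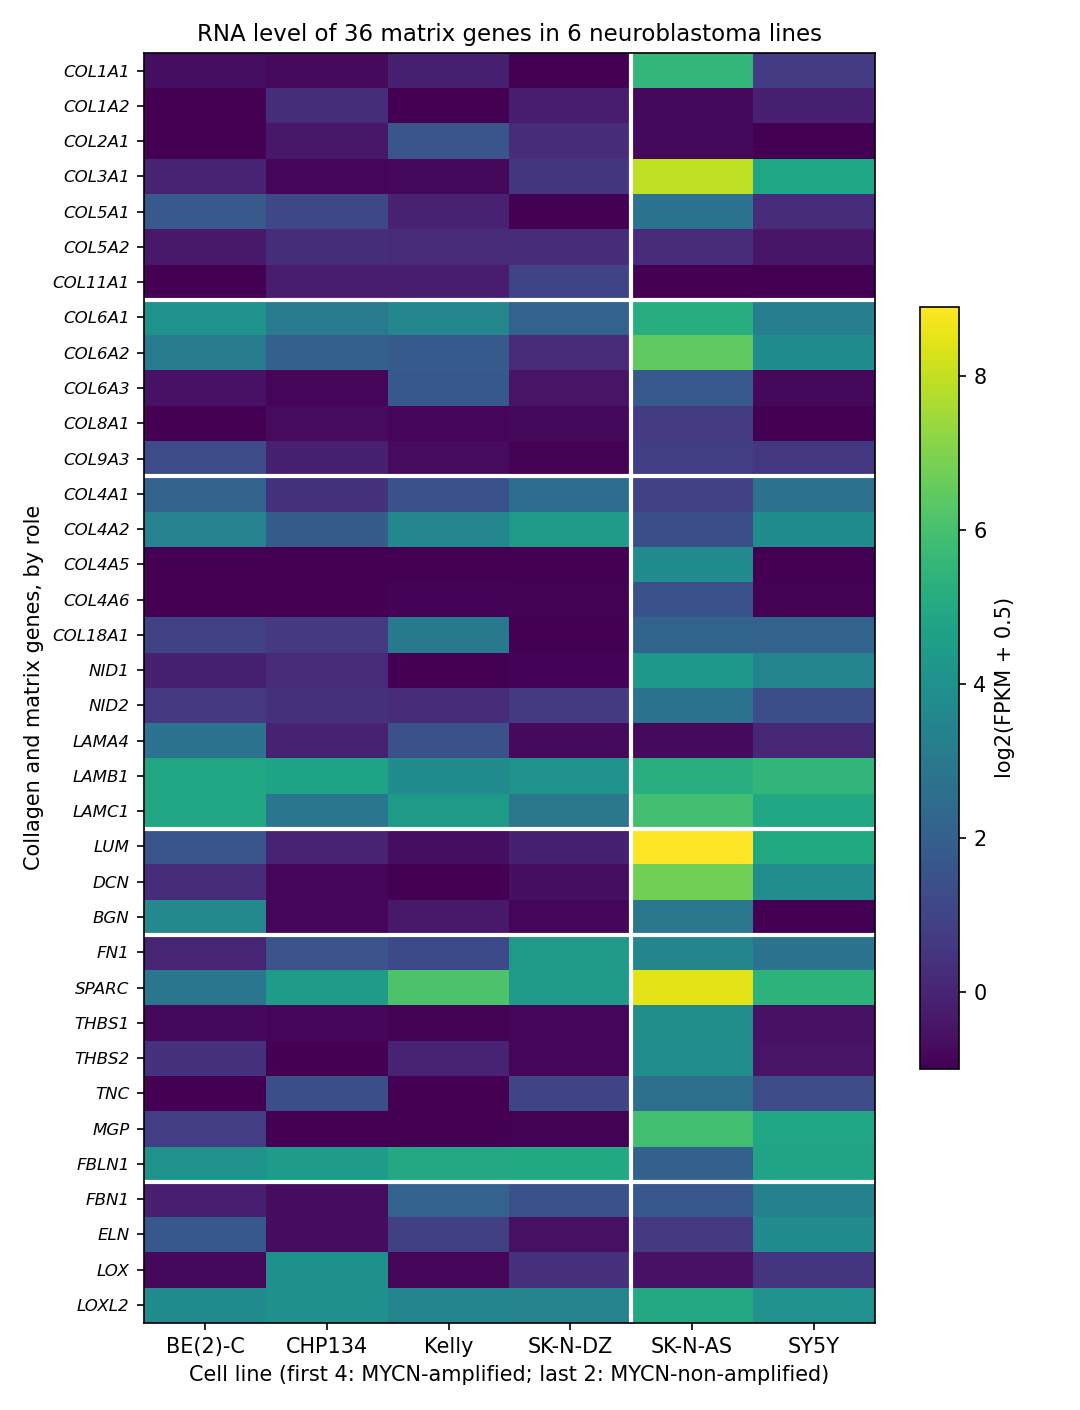
RNA level of each of the 36 genes (rows, grouped by role between the white lines) in each cell line (columns), as log2(FPKM + 0.5) on a colour scale. The SK-N-AS column is brightest for LUM, SPARC and COL3A1 (475, 357 and 247 FPKM), and LAMB1 and LOXL2 are above 10 FPKM in all 6 lines.

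For the comparison of the MYCN-amplified with the MYCN-non-amplified lines, 26 of the 36 members reached 1 FPKM in at least 2 lines and entered the limma test of log2(FPKM + 0.5), which covered 12870 loci. A call needed a log2 fold change beyond 1 in either direction, with p adjusted over all loci by Benjamini-Hochberg and below 0.05. 4 of the 26 members were called lower in the MYCN-amplified lines, COL3A1, DCN, MGP and NID1, where 0.365% of all loci were. None was called higher by limma, against 0.14% of all loci, and at an unadjusted p below 0.05 there were 12 members lower and 0 higher, beside 9.46% of all loci lower and 5.48% higher. The fold change was negative for 23 of the 26 (55.6% of all loci), with a median of -1.47, beside a median of -0.09 over all loci tested. All 4 MYCN-amplified lines lay below both other lines in 11 of the 26 members (16.4% of all loci) and above both in 0 (10.5% of all loci). COL1A1, COL3A1, DCN and NID1 passed only because SK-N-AS and SY5Y were high, so they had to differ in this direction. Their adjusted p does not test that direction. These counts describe the tested members and not the set as a whole.

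These calls depended on the lines included. MGP and NID1 were called without BE(2)-C and without CHP134, 0 members were called without Kelly, without SK-N-DZ or without SK-N-AS, and LUM alone was called without SY5Y. NID1 passed the minimum through SK-N-AS and SY5Y alone, and so did MGP without BE(2)-C, so the filter fixed their direction there. Among the 4 lines grown in DMEM, 0 members were called. COL3A1 then had a log2 fold change of -6.13, DCN of -5.52, MGP of -5.45 and NID1 of -4.37. RPMI held MYCN-amplified lines only, so that the medium gives no comparison of its own.

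Among the fibrillar collagens, COL3A1 was the most abundant in SK-N-AS and in SY5Y. COL3A1, the only chain of type III collagen, had 0.498, 0.0584, 0.0836 and 0.913 FPKM in BE(2)-C, CHP134, Kelly and SK-N-DZ, against 247 FPKM in SK-N-AS and 27.3 FPKM in SY5Y. The groups did not overlap, and SY5Y was still 29.9 times the highest MYCN-amplified line. The log2 fold change was -6.65 (SE 0.85), with an adjusted p of 0.0317 from limma. COL3A1 passed the minimum through SK-N-AS and SY5Y alone, so the filter fixed its direction and the lack of overlap. COL3A1 lies at chr2:189839024-189877472 in the hg19 build of the table.

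COL1A1, which encodes the alpha 1 chain of type I collagen, separated SK-N-AS from the rest. COL1A1 was at 0.138, 0.0873, 0.42 and 0 FPKM in BE(2)-C, CHP134, Kelly and SK-N-DZ, against 46.3 FPKM in SK-N-AS and 1.2 FPKM in SY5Y. The pooled comparison did not call it (log2 fold change -3.79, SE 1.16, adjusted p = 0.215 from limma). Its partner COL1A2, the alpha 2 chain of the same trimer, stayed below 1 FPKM in every line, with 0.00117, 0.716, 0 and 0.34 FPKM in the MYCN-amplified lines, 0.0823 FPKM in SK-N-AS and 0.404 FPKM in SY5Y. The ratio of COL1A1 to COL1A2 was 118 in BE(2)-C and 0.122 in CHP134, compared with 562 for SK-N-AS and 2.96 for SY5Y. Kelly and SK-N-DZ gave no ratio, since a chain was listed at 0. With COL1A2 below 1 FPKM in every line, these ratios rest on values near the floor. The type I trimer of most tissues holds both chains. An antisense gene overlaps COL1A1 exons in GENCODE 44, and since the kit does not mark strand their reads cannot be told apart. 17 of the 36 members have such an overlap, COL5A1, COL8A1, COL9A3, COL18A1, NID2, LAMA4, SPARC, THBS1, THBS2, TNC, ELN and LOXL2 among them.

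The other fibrillar chains were low throughout. COL5A1, a chain of type V collagen that starts fibril assembly, was at 2.9, 1.71, 0.435 and 0 FPKM in BE(2)-C, CHP134, Kelly and SK-N-DZ, against 6.29 FPKM in SK-N-AS and 0.707 FPKM in SY5Y, so that SY5Y lay inside the MYCN-amplified range. COL5A2, the other common chain of type V collagen, was between 0.258 and 0.726 FPKM in all 6 lines. The cartilage collagens COL2A1 and COL11A1 were highest in MYCN-amplified lines, COL2A1 at 2.51 FPKM in Kelly and COL11A1 at 1.51 FPKM in SK-N-DZ. COL11A1 was at 0.00131 to 1.51 FPKM in the MYCN-amplified lines, 0.000766 FPKM in SK-N-AS and listed at 0 in SY5Y. It was the only member of the 36 with all 4 MYCN-amplified lines above both other lines. BE(2)-C, at 0.00131 FPKM, and SK-N-AS were too low to tell apart, so this was not read as a separation.

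Collagen VI forms beaded microfilaments between fibres and basement membranes, and 3 of its chain genes are members. COL6A6, a chain gene outside the member list, was at 5.85 FPKM in Kelly and at most 0.725 FPKM in the other lines. COL6A1 was at 16.1, 7.68, 11.4 and 3.83 FPKM in BE(2)-C, CHP134, Kelly and SK-N-DZ, against 35.8 FPKM in SK-N-AS and 8.85 FPKM in SY5Y. COL6A2 was at 7.84, 3.59, 3.1 and 0.676 FPKM in the same MYCN-amplified lines, against 87.6 FPKM in SK-N-AS and 13.7 FPKM in SY5Y. The balance of the pair turned over between the groups: the ratio of COL6A1 to COL6A2 was 2.05, 2.14, 3.68 and 5.67 in the MYCN-amplified lines, compared with 0.408 for SK-N-AS and 0.646 for SY5Y, with no overlap and no test.

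Neither gene was called. COL6A2 had a log2 fold change of -3.35 (SE 0.91, adjusted p = 0.186 from limma) and COL6A1 of -1.01 (SE 0.68, adjusted p = 0.516 from limma). COL6A3, the largest chain, was at 2.77 FPKM in Kelly and at most 0.22 FPKM in the other MYCN-amplified lines, against 2.89 FPKM in SK-N-AS and 0.0856 FPKM in SY5Y. COL9A3, a chain of the fibril-associated type IX collagen, was at 0.0197 to 1.89 FPKM in the MYCN-amplified lines, at 1.29 FPKM in SK-N-AS and 0.992 FPKM in SY5Y. COL8A1, of the short-chain type VIII collagen, passed 1 FPKM in SK-N-AS alone (1.2 FPKM).

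The basement membrane genes include head-to-head pairs, in which both genes start from a shared stretch and run in opposite directions. COL4A1 and COL4A2, which encode the common alpha 1 and alpha 2 chains of collagen IV, form 1 pair, and COL4A5 and COL4A6 form another. The windows below run from 250 bases before to 50 bases after the annotated start, in RefSeq on the GRCh38.p14 build. They are shown because the expression of the 2 pairs differed between the lines and because NID1 is the called gene that had a window. Capitals mark matches on either strand to the CCAAT box, to GGGCGG, which is called the GC box, or to CAGAC, which is called the SMAD box.

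COL4A2, chr13:110307034-110307333, plus strand: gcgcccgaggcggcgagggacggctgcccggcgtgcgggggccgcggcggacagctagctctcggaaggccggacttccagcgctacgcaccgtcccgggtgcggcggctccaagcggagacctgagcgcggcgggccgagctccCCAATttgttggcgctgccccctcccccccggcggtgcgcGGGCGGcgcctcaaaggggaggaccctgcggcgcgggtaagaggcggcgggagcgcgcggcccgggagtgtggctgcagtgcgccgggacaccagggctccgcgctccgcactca
COL4A5, chrX:108439588-108439887, plus strand: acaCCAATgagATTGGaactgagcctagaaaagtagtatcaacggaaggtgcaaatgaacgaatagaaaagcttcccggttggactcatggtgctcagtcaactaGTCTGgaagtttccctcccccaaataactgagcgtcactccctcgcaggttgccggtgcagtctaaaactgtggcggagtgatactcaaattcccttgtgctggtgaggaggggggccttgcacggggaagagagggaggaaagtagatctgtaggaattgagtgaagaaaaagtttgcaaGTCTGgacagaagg
NID1, chr1:236065041-236065340, minus strand: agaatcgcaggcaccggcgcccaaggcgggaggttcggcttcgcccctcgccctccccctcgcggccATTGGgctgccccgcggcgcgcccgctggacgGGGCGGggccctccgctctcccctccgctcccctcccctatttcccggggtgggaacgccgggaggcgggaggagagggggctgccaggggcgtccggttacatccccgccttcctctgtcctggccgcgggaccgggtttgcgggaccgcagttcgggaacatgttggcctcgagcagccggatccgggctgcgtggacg

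The starts of COL4A1 and COL4A2 are 127 bases apart, and the CCAAT box 105 bases before the COL4A2 start is the same site that lies 26 bases before the COL4A1 start on the other strand. The GC box of the COL4A2 window, 65 bases before its start, also lies 67 bases before that of COL4A1. The starts of COL4A5 and COL4A6 are 380 bases apart, and the 2 facing CCAAT boxes at the far end of the COL4A5 window fall in the COL4A6 window as well. NID1 holds a CCAAT box 183 bases and a GC box 151 bases before its start. Windows were at hand for 23 of the 36 members (28 windows). The CCAAT box was in 35.7% of them and in 34.6% of all 35116 windows, and the GC box in 67.9% and 45%. The members' windows had a median GC content of 68.7%, beside 58.7% over all windows. CAGAC was in 53.6% of the members' windows and 45.3% of all, TATAAA in 10.7% and 11.5%, and GGAATG in 14.3% and 14%. Neither TGANTCA (0% of members' windows, 7.71% of all) nor CACGTG (0% and 7.26%) was found. A match is a run of letters and not a bound site. No window is given for COL1A1, COL1A2, COL2A1, COL3A1, COL5A2, COL6A1, COL8A1, COL9A3, LUM, DCN, MGP, ELN and LOXL2.

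The COL4A1 and COL4A2 pair did not follow the fibrillar pattern. COL4A2 was at 9.99, 3.29, 11.5 and 19.7 FPKM in BE(2)-C, CHP134, Kelly and SK-N-DZ, against 2.12 FPKM in SK-N-AS and 13.4 FPKM in SY5Y. COL4A1 was at 3.95, 0.873, 2.32 and 5.37 FPKM in the same MYCN-amplified lines, against 1.44 FPKM in SK-N-AS and 6.21 FPKM in SY5Y. SK-N-AS, the richest line in most of the other members, was thus the lowest of the 6 for COL4A2, and only CHP134 was lower for COL4A1.

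The differences were within the spread of the lines. The log2 fold change was 0.72 (SE 0.82, adjusted p = 0.709 from limma) for COL4A2 and -0.19 (SE 0.72, adjusted p = 0.923 from limma) for COL4A1, and the signs turned for COL4A2 without SK-N-AS (-0.49) and for COL4A1 without CHP134 (0.22) or SY5Y (0.71). COL4A2 exceeded COL4A1 in every line, by a ratio of 2.53 to 4.98 in the MYCN-amplified lines, 1.47 in SK-N-AS and 2.16 in SY5Y. Reads of antisense genes within COL4A2 could not be separated.

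The other pair was present in SK-N-AS alone. COL4A5 was at 0.000192 and 0.00563 FPKM in BE(2)-C and Kelly and listed at 0 in CHP134 and SK-N-DZ, against 13 FPKM in SK-N-AS and a listed 0 in SY5Y. COL4A6 was at 0.00401 to 0.0384 FPKM in the MYCN-amplified lines, at 2.35 FPKM in SK-N-AS and 0.0158 FPKM in SY5Y. Both miss the minimum of 1 FPKM in at least 2 lines and are not in the test above. The alpha 5 and alpha 6 chains join in a collagen IV trimer found in smooth muscle and some epithelial basement membranes.

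**Figure D2:**
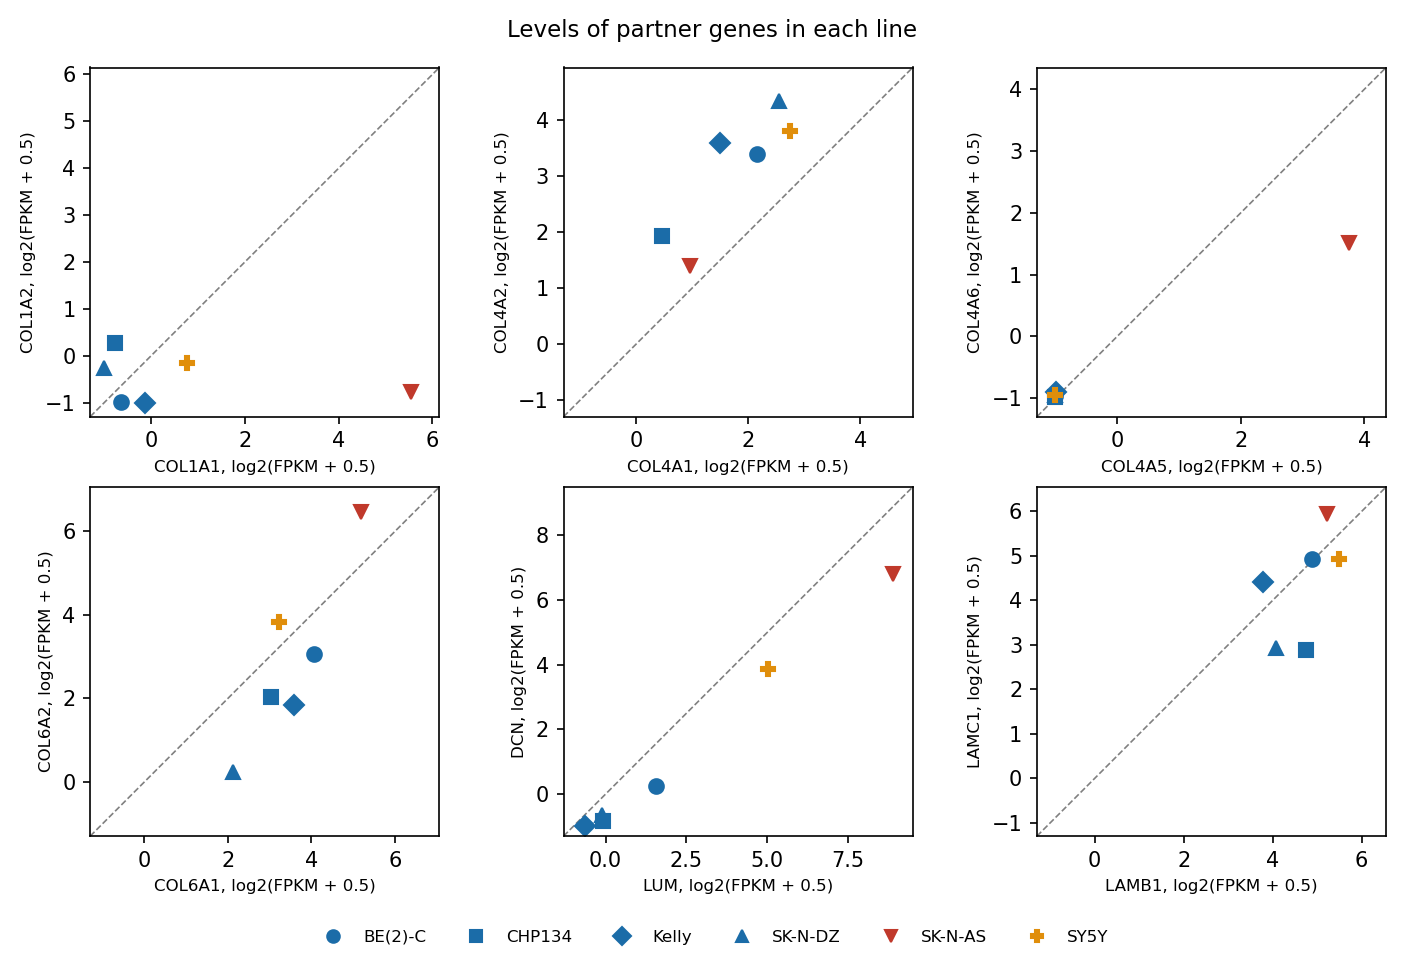
Level of partner genes against each other in each line, both axes as log2(FPKM + 0.5), with the dashed line at equal levels. COL6A1 exceeds COL6A2 in the 4 MYCN-amplified lines and falls below it in SK-N-AS and SY5Y, COL4A2 is above COL4A1 in all 6 lines, and COL4A5 with COL4A6 is seen in SK-N-AS alone.

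NID1, the nidogen that bridges laminin and collagen IV, was lower in the MYCN-amplified lines. NID1 was at 0.419, 0.618, 0 and 0.037 FPKM in BE(2)-C, CHP134, Kelly and SK-N-DZ, against 18.7 FPKM in SK-N-AS and 10.4 FPKM in SY5Y. The log2 fold change was -4.32 (SE 0.52), with an adjusted p of 0.0266 from limma, and SK-N-AS was at 1.8 times SY5Y. NID1 passed the minimum through SK-N-AS and SY5Y alone, so this p does not test its direction. Its relative NID2 was at 0.701 to 1.1 FPKM in the same MYCN-amplified lines, against 6.38 FPKM in SK-N-AS and 2.09 FPKM in SY5Y. NID2 did not overlap either but was not called (log2 fold change -1.58, SE 0.50, adjusted p = 0.22 from limma).

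The laminin chains differed in how evenly the lines expressed them. LAMB1, the beta 1 chain, was at 29.1, 26.5, 13.3 and 16.5 FPKM in BE(2)-C, CHP134, Kelly and SK-N-DZ, against 36.6 FPKM in SK-N-AS and 44.7 FPKM in SY5Y. Its highest and lowest lines differed by a ratio of 3.37 (log2 fold change -0.98, SE 0.38, adjusted p = 0.293 from limma). DLD, a mitochondrial enzyme gene, overlaps LAMB1 exons on the other strand, and reads of the overlap cannot be told apart. LAMC1, the gamma 1 chain that most laminins share, was at 29.9, 6.85, 20.7 and 7.11 FPKM in the MYCN-amplified lines, against 61.4 FPKM in SK-N-AS and 30.2 FPKM in SY5Y, and BE(2)-C came close to SY5Y. LAMA4, an alpha chain of vessel and nerve laminins, ran the other way in BE(2)-C and Kelly (6.33 and 2.27 FPKM), with 0.44 FPKM in CHP134 and 0.103 FPKM in SK-N-DZ, against 0.102 FPKM in SK-N-AS and 0.616 FPKM in SY5Y. COL18A1, whose C-terminal fragment is endostatin, was highest in Kelly at 7.48 FPKM and lowest in SK-N-DZ at 0.00225 FPKM, with 4.09 FPKM in SK-N-AS and 3.9 FPKM in SY5Y between them.

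Of the small proteoglycans, LUM and DCN did not overlap between the groups and BGN did. LUM, or lumican, was at 2.47, 0.453, 0.137 and 0.417 FPKM in BE(2)-C, CHP134, Kelly and SK-N-DZ, against 475 FPKM in SK-N-AS and 31.8 FPKM in SY5Y. DCN, or decorin, was at 0.698, 0.0636, 0 and 0.138 FPKM in the same MYCN-amplified lines, against 110.4 FPKM in SK-N-AS and 14 FPKM in SY5Y. BE(2)-C was the highest MYCN-amplified line for both, and the genes are neighbours in hg19, LUM at chr12:91496405-91505608 and DCN at chr12:91539024-91576900.

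DCN was called (log2 fold change -5.88, SE 0.80, adjusted p = 0.04 from limma). It passed the minimum through SK-N-AS and SY5Y alone, so the filter fixed its direction and its lack of overlap. LUM, with a larger fold change of -6.77 (SE 1.06), had an adjusted p of 0.0538 and was not. BGN, or biglycan, the closest relative of decorin, had another pattern, with 12.1 FPKM in BE(2)-C, 0.0686 FPKM in CHP134, 0.294 FPKM in Kelly and 0.0593 FPKM in SK-N-DZ, against 7.07 FPKM in SK-N-AS and a listed 0 in SY5Y. Its log2 fold change was -0.54 (SE 1.53, adjusted p = 0.89 from limma).

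**Figure D3:**
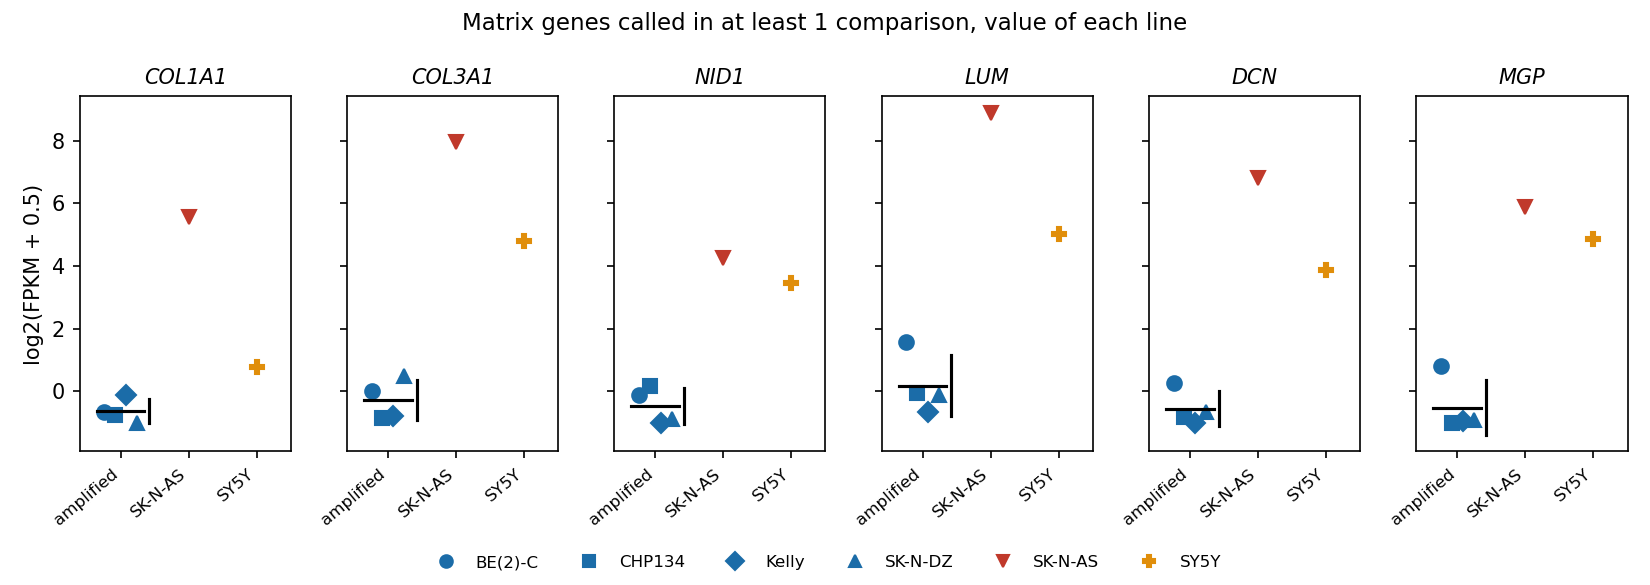
The 6 genes called in at least 1 comparison, as log2(FPKM + 0.5), with 1 point per cell line. The horizontal bar is the mean of the 4 MYCN-amplified lines and the vertical bar beside it their SD, and SK-N-AS and SY5Y have 1 library each. All 4 MYCN-amplified lines lie below SK-N-AS and SY5Y in every panel, and for COL1A1 SY5Y (1.2 FPKM) lies near them. For COL1A1, COL3A1, DCN and NID1 the filter fixed this order.

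Among the adhesive and matricellular glycoproteins, MGP was lower in the MYCN-amplified lines. MGP, matrix Gla protein, an inhibitor of calcification, was at 1.24, 0, 0.0123 and 0.0252 FPKM in BE(2)-C, CHP134, Kelly and SK-N-DZ, against 59 FPKM in SK-N-AS and 28.7 FPKM in SY5Y. The log2 fold change was -5.90 (SE 0.64), with an adjusted p of 0.0158 from limma, the smallest of the members. GENCODE 44 lists C12orf60 on the other strand over an MGP exon, and reads of the overlap cannot be told apart.

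SPARC, a collagen-binding protein of remodelling tissue, was expressed in all lines. It was at 6.82, 21, 69.5 and 20.2 FPKM in BE(2)-C, CHP134, Kelly and SK-N-DZ, against 357 FPKM in SK-N-AS and 42 FPKM in SY5Y, and Kelly lay above SY5Y (log2 fold change -2.50, SE 1.03, adjusted p = 0.32 from limma). FN1, or fibronectin, to which cells attach through integrins, was highest in a MYCN-amplified line, with 0.53, 2.38, 1.82 and 19.3 FPKM in BE(2)-C, CHP134, Kelly and SK-N-DZ, against 10.7 FPKM in SK-N-AS and 6.38 FPKM in SY5Y. TNC, or tenascin-C, a glycoprotein of developing and wounded tissue, was listed at 0 in BE(2)-C and Kelly and was at 2.1 FPKM in CHP134 and 1.53 FPKM in SK-N-DZ, against 5.87 FPKM in SK-N-AS and 1.98 FPKM in SY5Y. None of SPARC, FN1 and TNC was called.

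FBLN1, or fibulin-1, which binds fibronectin and basement membranes, went against the set in SK-N-AS. FBLN1 was at 16, 21.5, 30.6 and 31.8 FPKM in BE(2)-C, CHP134, Kelly and SK-N-DZ, against 3.62 FPKM in SK-N-AS and 27.2 FPKM in SY5Y. SY5Y lay within the MYCN-amplified range and SK-N-AS well below it. The log2 fold change over both was 1.20 (SE 0.71, adjusted p = 0.46 from limma), and it was -0.17 without SK-N-AS. The thrombospondins THBS1 and THBS2, inhibitors of vessel growth, reached 14.4 and 14 FPKM in SK-N-AS. THBS1 was at most 0.0806 FPKM in the MYCN-amplified lines and 0.177 FPKM in SY5Y, and THBS2 was at most 0.814 FPKM and 0.226 FPKM in the same order.

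ELN and FBN1, which make elastic fibres, were highest in SY5Y, not in SK-N-AS. ELN, or elastin, was at 2.81, 0.12, 1.33 and 0.175 FPKM in BE(2)-C, CHP134, Kelly and SK-N-DZ, against 1.07 FPKM in SK-N-AS and 13.2 FPKM in SY5Y. FBN1, fibrillin-1, the microfibril that elastin is laid on, was at 0.399, 0.122, 3.77 and 2.34 FPKM in the same MYCN-amplified lines, against 2.73 FPKM in SK-N-AS and 9.69 FPKM in SY5Y. Neither was called (ELN log2 fold change -1.88, SE 1.02, adjusted p = 0.429; FBN1 -1.83, SE 0.89, adjusted p = 0.381, both from limma).

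The cross-linking enzymes did not share a pattern. LOXL2, a lysyl oxidase that acts on collagen IV, was at 13, 15.2, 10.4 and 10.3 FPKM in BE(2)-C, CHP134, Kelly and SK-N-DZ, against 30.8 FPKM in SK-N-AS and 15.7 FPKM in SY5Y, and its highest and lowest lines differed by a ratio of 2.99. Its locus is merged with ENTPD4. LOX, the lysyl oxidase of fibrillar collagen and elastin, passed 1 FPKM in CHP134 alone, with 15.1 FPKM there, 0.0742 FPKM in BE(2)-C, 0.0494 FPKM in Kelly and 0.802 FPKM in SK-N-DZ, against 0.2 FPKM in SK-N-AS and 0.891 FPKM in SY5Y. SK-N-AS, the line with the highest fibrillar collagen level, was among the low ones. SRFBP1 overlaps LOX on the other strand.

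SK-N-AS was then set apart from SY5Y, with a model of 3 groups in which each of these lines was assumed to vary like the 4 MYCN-amplified lines. The comparisons share the MYCN-amplified lines, so their values are given side by side. COL1A1, COL3A1, DCN and NID1 passed the minimum through SK-N-AS and SY5Y alone, which fixed their direction against each of these lines. With BE(2)-C left out, LUM and MGP did so too, and their direction was then fixed as well. Against SK-N-AS, 4 of 26 members were called lower in the MYCN-amplified lines (0.179% of all loci), and none was called higher by limma (0.124% of all loci), with 12 lower and 1 higher at an unadjusted p below 0.05 (7.43% and 4.62% of all loci). The 4 were COL3A1 (log2 fold change -8.23, SE 0.67, adjusted p = 0.0239), LUM (-8.71, SE 0.85, adjusted p = 0.0253), DCN (-7.35, SE 0.65, adjusted p = 0.0253) and COL1A1 (-6.18, SE 0.61, adjusted p = 0.0253), all from limma. COL3A1, LUM, DCN and MGP were called when BE(2)-C was left out, and 0 members when CHP134, Kelly or SK-N-DZ was. NID1 (-4.73, SE 0.67, adjusted p = 0.064) and MGP (-6.42, SE 0.83, adjusted p = 0.0529) missed the limma threshold in this comparison.

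Against SY5Y, 0 of 26 members were called by limma in either direction (0.0389% of all loci in each), with 6 lower and 0 higher at an unadjusted p below 0.05 (4.23% and 2.44% of all loci). COL3A1 was at -5.07 (SE 0.67, adjusted p = 0.119), MGP at -5.39 (SE 0.83, adjusted p = 0.175), LUM at -4.83 (SE 0.85, adjusted p = 0.256), DCN at -4.41 (SE 0.65, adjusted p = 0.142) and NID1 at -3.91 (SE 0.67, adjusted p = 0.24), all from limma. COL1A1 was at -1.40 (SE 0.61, adjusted p = 0.77 from limma) and ELN at -3.44 (SE 1.03, adjusted p = 0.604 from limma).

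**Figure D4:**
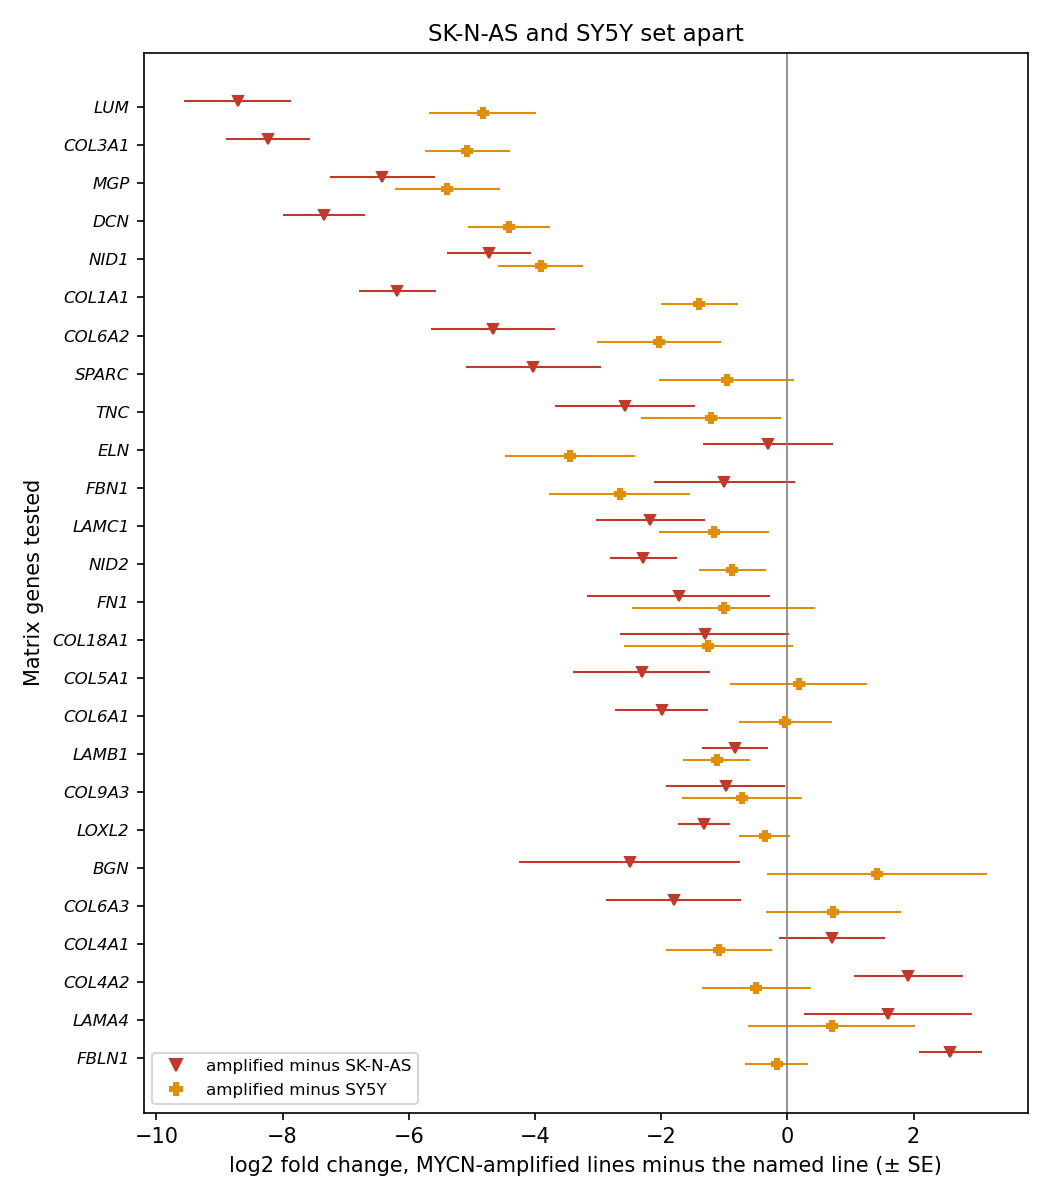
Log2 fold change of the MYCN-amplified lines minus SK-N-AS (triangles) and minus SY5Y (crosses) for each of the 26 tested members, with bars of 1 SE. Values left of 0 are lower in the MYCN-amplified lines, LUM and COL3A1 lie farthest left for SK-N-AS (-8.71 and -8.23), ELN lies farther left for SY5Y (-3.44) than for SK-N-AS (-0.31), and FBLN1 lies right of 0 for SK-N-AS (2.58).

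SK-N-AS and SY5Y also differed from each other, though not beyond the threshold. Of the 36 members, 27 were higher in SK-N-AS than in SY5Y, among them 19 of the 26 tested (53.7% of all loci tested). In 20 of the 36, SK-N-AS was the highest of all 6 lines, among them 15 of the 26 tested (23.9% of all loci tested). SK-N-AS exceeded every MYCN-amplified line in 16 of the 26 (29.5% of all loci) and SY5Y did so in 14 (25.1% of all loci). In the direct comparison 0 members were called by limma in either direction (0% of all loci in each), with 4 higher and 1 lower in SK-N-AS at an unadjusted p below 0.05 (1.67% and 1.97% of all loci). The 4 were COL1A1 (log2 fold change 4.79, SE 0.77, adjusted p = 0.442), LUM (3.88, SE 1.07, adjusted p = 0.878), COL3A1 (3.16, SE 0.84, adjusted p = 0.859) and DCN (2.93, SE 0.82, adjusted p = 0.884), and the other was FBLN1 (-2.75, SE 0.63, adjusted p = 0.752), all from limma.

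Genes that a single line expressed were outside this test, since 8 members reached 1 FPKM in 1 line only and COL1A2 and COL5A2 in none. The 8 were COL4A5, COL4A6, COL8A1, THBS1 and THBS2 in SK-N-AS, COL2A1 in Kelly, COL11A1 in SK-N-DZ and LOX in CHP134. With a looser minimum of 1 FPKM in at least 1 line (14385 loci, 34 members), the count lower in the MYCN-amplified lines than in SK-N-AS was 11 (2.84% of all loci). For 5 of these, COL4A5, COL4A6, COL8A1, THBS1 and THBS2, SK-N-AS was the line that carried them past the minimum, so the filter fixed their direction and their levels above are given without a test. The other 6 were COL3A1, LUM, DCN, COL1A1, MGP and NID1. Of these, COL3A1, DCN, COL1A1 and NID1 reached the minimum in SK-N-AS and SY5Y only, so their direction was fixed too. Between SK-N-AS and SY5Y the count higher in SK-N-AS was 4 (1.02% of all loci), of which COL4A5, COL4A6 and THBS1 had their direction fixed in the same way and COL1A1 rests on 1 library on each side. In the pooled comparison the count lower stayed at 4 (0.327% of all loci).

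The wider machinery of the matrix was read from lists of genes outside the 36, and over all loci 9.46% were lower and 5.48% higher at an unadjusted p below 0.05. Of 23 tested genes of collagen synthesis and processing, 0 were called by limma, with 8 lower and 2 higher at an unadjusted p below 0.05, and the median log2 fold change was -0.83. SERPINH1, the collagen chaperone HSP47, was at 3.15, 6.99, 12.2 and 6.32 FPKM in BE(2)-C, CHP134, Kelly and SK-N-DZ, against 65 FPKM in SK-N-AS and 28.2 FPKM in SY5Y (log2 fold change -2.64, SE 0.55, adjusted p = 0.114 from limma). PCOLCE, an enhancer of procollagen cleavage, had a log2 fold change of -1.83 (SE 0.43, adjusted p = 0.143 from limma).

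The 2 genes of this list that were higher at an unadjusted p below 0.05 are named after their values were seen. PLOD2, a lysyl hydroxylase that prepares collagen for cross-links, was at 0.187, 9.84, 20.4 and 10.2 FPKM in BE(2)-C, CHP134, Kelly and SK-N-DZ, against a listed 0 in SK-N-AS and 0.00991 FPKM in SY5Y (log2 fold change 3.64, SE 1.25, adjusted p = 0.251 from limma). LOXL1, a lysyl oxidase of elastic fibres, was at 6.14, 14.7, 9.13 and 3.49 FPKM in the MYCN-amplified lines, against 3.69 FPKM in SK-N-AS and 0.00116 FPKM in SY5Y (2.45, SE 0.88, adjusted p = 0.265 from limma). Of the MYCN-amplified lines only BE(2)-C was near SK-N-AS and SY5Y for PLOD2, and SY5Y was the lowest line for LOXL1. PLOD2 passed the minimum through CHP134, Kelly and SK-N-DZ alone, so the filter fixed its direction.

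Collagen receptors had the only call in these lists. Of 7 tested, 1 was called lower and 0 higher by limma, beside 0.365% and 0.14% of all loci. At an unadjusted p below 0.05, 4 were lower and 0 higher, beside 9.46% and 5.48% of all loci. All 7 fold changes were negative (55.6% of all loci), with a median of -1.0, beside -0.09 over all loci. MRC2, the endocytic receptor that takes up collagen fragments, was at 3.78, 1.47, 2.92 and 3.23 FPKM in BE(2)-C, CHP134, Kelly and SK-N-DZ, against 29 FPKM in SK-N-AS and 17.2 FPKM in SY5Y (log2 fold change -2.83, SE 0.43, adjusted p = 0.0469 from limma). ITGB1, the beta 1 integrin shared by the collagen-binding integrins, had 57.1, 58.9, 50.5 and 39.9 FPKM in the MYCN-amplified lines, against 194 FPKM in SK-N-AS and 119.8 FPKM in SY5Y (-1.57, SE 0.30, adjusted p = 0.0988 from limma). ITGA2 encodes the alpha 2 subunit of a collagen-binding integrin. It was at most 0.115 FPKM in the MYCN-amplified lines, 25.1 FPKM in SK-N-AS and 2.06 FPKM in SY5Y. Its log2 fold change against SK-N-AS was -5.53. ITGA2 is among the 4 lower but passed the minimum through SK-N-AS and SY5Y alone, so the filter fixed its direction.

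In the remaining lists 0 genes were called by limma. Of 5 other basement membrane genes tested, 2 were lower at an unadjusted p below 0.05, LAMA5 (log2 fold change -2.12, SE 0.48, adjusted p = 0.133) and LAMB2 (-2.11, SE 0.74, adjusted p = 0.26), both laminin chains, and the median was -1.67. Of 18 other matrix glycoproteins and proteoglycans, 5 were lower and 0 higher at an unadjusted p below 0.05, with a median of -1.08. They were led by MFAP2, a microfibril protein (-2.74, SE 0.58, adjusted p = 0.117), and EFEMP2, or fibulin-4, needed for elastic fibres (-2.46, SE 0.68, adjusted p = 0.188), all from limma. Among the 5 lower, LTBP2 passed the minimum through SK-N-AS and SY5Y alone, which fixed its direction. The 5 other collagens tested had a median of 0.03 and 0 at an unadjusted p below 0.05.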

How the data were processed

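RNA was taken from 6 cell lines, 1 library each. Alignment by the authors used STAR and hg19, and their methods go on to counts, edgeR and TMM scaling. What was deposited instead is a table of normalized values at 19170 loci without a named unit. With fractional values and library sums that differ (777111 to 1305116), the deposited unit was inferred to be FPKM. The sources used here do not say how the loci were made, 3067 named loci merge several genes (8 of the members), and depth is unknown, so that no counting interval can be given. RNU4-1 and RNU4-2 hold 22.6% to 54.6% of each sum. 0 columns of values were left unused.

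The 16223 named loci were filtered at 1 FPKM in at least 2 lines. The test was limma 3.58.1 (R 4.3.3) with lmFit and a trended eBayes, run on log2(FPKM + 0.5), with Benjamini-Hochberg adjustment, and it was checked on simulated data. Adding 0.5 understates the change of low genes. The 2-group model has 4 residual degrees of freedom and the 3-group model 3. Members and lists were chosen with earlier results of these data known. Values in each line are given for members called in any comparison, the up to 4 most abundant of each role and partner genes, and in the other lists for called genes and up to 2 more of smallest p. The pseudocount, filter, scaling, variance model, merged and unnamed loci, threshold, medium and each line left out were varied. Positions are in hg19, antisense overlaps from GENCODE 44 on that build and promoters from RefSeq (GRCh38.p14), never mixed. Python 3.11.15, pandas 2.3.3 and matplotlib 3.10.9 were used.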

Additional observations from a re-analysis of the deposited data

Results flagged for a closer look

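In each of the 36 groups of 4 MYCN-amplified lines, the gap between the highest or lowest line and its neighbour was set against the range of the group, and 4 exceeded the critical value of Dixon's test, where chance gives about 1 in 20. BGN stood out in BE(2)-C at 12.1 FPKM (gap 0.888 of the range), and MGP in the same line at 1.24 FPKM (0.961), still below SK-N-AS and SY5Y. COL6A3 stood out in Kelly at 2.77 FPKM (0.847), close to SK-N-AS. COL4A5 stood out in Kelly at 0.00563 FPKM (0.966), a level too low to read.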

How the results depend on the processing

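The 4 calls between the MYCN-amplified and the MYCN-non-amplified lines were kept with median-ratio, upper-quartile or quantile scaling, without the trend, with the robust fit, with a pseudocount of 2, with looser filters and with unnamed loci. The count lower was 0 with the smaller pseudocount, 0 with a minimum of 5 FPKM, 0 in DMEM lines only, and 0 to 2 with each MYCN-amplified line left out. Against SK-N-AS the count lower was 0 with the smaller pseudocount, 11 without a filter or at 1 FPKM in at least 1 line, 2 with a minimum of 5 FPKM, 0 in DMEM lines only, and 0 to 4 with each line left out. Against SY5Y it was 2 with a pseudocount of 2 (COL3A1 and MGP), and the count higher in SK-N-AS than in SY5Y was 4 without a filter or at 1 FPKM in at least 1 line. At 1 FPKM in at least 1 line, 5 of the 11 and 3 of the 4 passed the minimum through SK-N-AS alone, which fixed their direction. At 1 FPKM in at least 2 lines, COL1A1, COL3A1, DCN and NID1 passed through SK-N-AS and SY5Y alone, which fixed their direction too. LUM and MGP did so without BE(2)-C. The cause was not tested.

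Signs turned for genes that were not called. COL4A1 was at 0.02 with quantile scaling and 0.50 in DMEM lines only, and BGN at 0.45 in DMEM lines only. With each line left out the log2 fold change ran from -2.31 to 0.18 for COL5A1, from -1.08 to 0.71 for COL4A1 (0.22 without CHP134), from -0.49 to 1.92 for COL4A2 and from -0.17 to 2.58 for FBLN1. With each MYCN-amplified line left out, the adjusted p from limma was 0.0543 to 0.103 for COL3A1 and 0.0516 to 0.115 for DCN. For NID1 it was 0.0383 to 0.0854. These genes fell below the minimum without SK-N-AS or SY5Y and were not fitted there. MGP and LUM were fitted with every line left out in turn, with log2 fold changes of -6.42 to -5.39 and -8.71 to -4.83. LUM was called among loci with a single gene name (adjusted p = 0.0488 from limma). Of the fold changes of single members under an alternative, 498 kept their sign and side of the threshold, 48 lost the call, 3 gained it and 8 changed sign. The median over all loci moved between -0.21 (DMEM lines only) and 0.04 (quantile scaling). No paired analysis was possible because each library comes from a different line and no line has a partner in the other group. With 1 library for each of SK-N-AS and SY5Y and an unknown depth, levels below about 1 FPKM carry no error of their own.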
